A study of Mus musculus with 74 samples.

Results

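The serpin family was taken as every gene of the deposited count tables whose symbol was Serpin followed by a clade letter, a number and an optional letter. It held 54 of the 17853 genes listed in at least 1 of 6 tables, and 39 of the 54 were listed in all 6. In the annotation of build GRCm38, 22 Serpina genes lay together on chromosome 12 and 11 Serpinb genes on chromosome 1. A further 10 Serpinb genes lay on chromosome 13, and the remaining 11 members were scattered. The clusters spanned 799.5 kb (chr12:103614786-104414329), 749.3 kb (chr1:106861173-107610484) and 1160.7 kb (chr13:32842092-34002794).

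The study measured RNA in mTEChi, the medullary epithelial cells of the thymus with high MHC class II, which make AIRE. This nuclear protein lets thymic cells switch on genes that belong to other organs, for T cells in training to meet. The assay was bulk MARS-seq, which counts tags from the 3' end of transcripts, in mice 4 to 7 weeks old with mutations in Aire. Among mice of strain C57BL/6 (B6), a null line had 3 wild-type, 5 Aire+/- and 4 Aire-/- libraries, and the Y86C line had 3 each of wild type, +/Y86C and Y86C/Y86C. The C313X line (C313X is a stop) had 3 wild-type, 2 heterozygous and 3 homozygous libraries, and the C442G line 3, 5 and 6. On the NOD strain, the V303M line had 3 libraries of each genotype. Another NOD table held 3 Aire-/- libraries beside 3 of Aire+/-, a set of 4 +/C313Y libraries with 5 wild types (2 of them titled C313T), and 3 compound mutants with 1 null and 1 C313Y allele (C313Y/null) with 3 further wild types. Each mutant group was compared with the wild type of its line, except NOD Aire-/-, which was compared with Aire+/-. The labels do not tell whether replicates were separate animals or pools, so the p-values measure the spread between these libraries. In such bulk samples, fewer cells of a kind and less RNA per cell cannot be told apart.

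Serpins are a family of proteins best known as protease inhibitors. A typical member exposes a flexible reactive loop as bait. The protease cuts the loop, the serpin snaps into a new fold, and both are locked together and destroyed as enzyme and inhibitor. Clade A holds secreted inhibitors of blood plasma, many of them made by the liver, and carriers of hormones. Clade B members stay largely inside cells, where they restrain proteases of immune cells and of squamous epithelium. A few members do not inhibit proteases at all, such as the collagen chaperone Serpinh1.

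Library totals ran from 1016619 to 7225403 counts. Values per library are given in CPM, the usual scaling of a gene's count by the total of its library. Fold changes are log2 ratios with their standard error (SE) from edgeR's quasi-likelihood test after TMM scaling, and a call means a p under 0.05 once adjusted by Benjamini-Hochberg across the genes tested in that comparison. TMM factors raised the log2 ratio over that of plain CPM by 0.10 in the B6 null homozygotes, 0.25 in Y86C, 0.20 in C313X and C442G homozygotes, 0.15 in NOD Aire-/- and 0.12 in the C313Y/null mutants. Aire transcript was present in each group, with group means from 1685 CPM in the wild types of the Y86C line to 4293 CPM in the C313X homozygotes. Since a tag reads the 3' end alone, these levels do not check the null allele. Sums of 7 keratinocyte markers and 6 hepatocyte markers (5 of them listed in the C442G table) differed between genotypes and are given below. Other lists differed too. In Y86C homozygotes 8 mTEChi markers other than Aire summed to 42050 to 47200 CPM, against 23710 to 28200 CPM in wild type. Cortical epithelial markers summed to 3141 to 3647 against 1608 to 1849 CPM there, with 1 of 3 tested called higher and 1 lower. Thymocyte markers summed to 31.5 to 38.5 against 58.3 to 60.4 CPM, with 1 of 5 tested called higher and 3 lower. Fibroblast and endothelial markers summed to 421.6 to 504.7 against 211.5 to 249.9 CPM (1 of 4 higher, 2 lower). For myeloid and dendritic markers it was 834.5 to 984.2 against 662.2 to 693.0 CPM (2 of 5 higher, 2 lower). In B6 Aire-/- the mTEChi sum was 29220 to 40730 against 25880 to 27880 CPM. The part of these lists was not tested.

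Of the 54 members, 42 had enough counts to be tested in at least 1 of 13 comparisons. The other 12 (Serpina1a, a1d, a3c, a3k, a3m, a5, a6, a12, Serpinb3b, b9d, Serpine3 and f2) stayed at group means of at most 4.18 CPM. Of the 42, 38 were called somewhere: 25 in the lower direction alone, 10 in the higher direction alone, and 3 in both (Serpina3j, Serpinb1a and Serpind1). Serpina3a, Serpinb1b, Serpinb1c and Serpinb5 were tested and called in no comparison. The low members passed the filter mainly through the groups in which they were high, so the share of fallers among those tested is partly set by the filter.

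The promoters of a pair of neighbours on chromosome 1 that rose, Serpinb7 and Serpinb2, and of a pair in the same cluster that fell, Serpinb11 and Serpinb3a, are shown because the results below turn on these genes. Each is the 300 bases from 250 before to 50 after a RefSeq start (GRCm38.p6), written 5' to 3' on the strand of the gene. Capitals mark TATAAA and TGANTCA, searched on both strands (TTTATA is TATAAA read on the other strand). Serpinb7 lay at chr1:107422439-107422738 on the plus strand, Serpinb2 at chr1:107511173-107511472 on the plus strand, Serpinb11 at chr1:107362064-107362363 on the plus strand and Serpinb3a at chr1:107052254-107052553 on the minus strand.
Serpinb7: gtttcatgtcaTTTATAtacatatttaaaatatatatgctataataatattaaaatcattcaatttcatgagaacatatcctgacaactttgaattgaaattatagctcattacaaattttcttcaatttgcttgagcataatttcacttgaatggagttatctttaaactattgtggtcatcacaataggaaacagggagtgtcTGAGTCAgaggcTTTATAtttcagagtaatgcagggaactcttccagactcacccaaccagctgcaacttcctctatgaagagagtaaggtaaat
Serpinb2: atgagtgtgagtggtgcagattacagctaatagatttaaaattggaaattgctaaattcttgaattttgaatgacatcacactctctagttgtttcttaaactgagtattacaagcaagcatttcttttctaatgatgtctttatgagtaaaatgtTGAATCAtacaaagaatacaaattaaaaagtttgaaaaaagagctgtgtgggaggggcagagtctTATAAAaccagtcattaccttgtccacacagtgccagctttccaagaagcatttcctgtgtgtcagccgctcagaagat
Serpinb11: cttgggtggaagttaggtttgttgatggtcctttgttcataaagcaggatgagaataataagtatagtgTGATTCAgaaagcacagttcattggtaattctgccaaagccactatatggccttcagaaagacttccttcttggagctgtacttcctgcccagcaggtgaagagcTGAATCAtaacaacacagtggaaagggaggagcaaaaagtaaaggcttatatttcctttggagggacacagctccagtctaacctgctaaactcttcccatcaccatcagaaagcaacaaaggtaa
Serpinb3a: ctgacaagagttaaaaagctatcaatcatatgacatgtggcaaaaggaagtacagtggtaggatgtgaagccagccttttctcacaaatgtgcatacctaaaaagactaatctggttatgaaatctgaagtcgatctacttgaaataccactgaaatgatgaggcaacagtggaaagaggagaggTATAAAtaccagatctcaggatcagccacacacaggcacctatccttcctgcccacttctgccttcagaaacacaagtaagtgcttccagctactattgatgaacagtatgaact
The windows of Serpinb7 and Serpinb2 held TATAAA close upstream of the start and one TGANTCA. Serpinb3a held TATAAA and no TGANTCA, and Serpinb11 held TGANTCA at 2 places and no TATAAA. Serpinb12, another member of this cluster that fell in B6 Aire-/-, held both and is not printed. A match describes letters in a window and not a site in use.

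In the 6 comparisons of homozygous or compound mutants other than V303M, more members fell than rose, most narrowly in the C313Y/null mutants. In B6 Aire-/-, 4 of 30 members tested rose and 15 fell, where 17.7% of all genes tested rose and 18.9% fell. In Y86C homozygotes 8 of 37 rose and 20 fell (21.7% and 27.9% of all genes), or 5 and 24 with plain library totals in place of TMM factors. In C313X homozygotes 2 of 33 rose and 12 fell (7.85% and 15.2%). In C442G homozygotes 7 of 35 rose and 16 fell (19.5% and 23.1%). In NOD Aire-/- 2 of 36 rose and 8 fell (4.21% and 9.11%), and in the C313Y/null mutants 9 of 36 rose and 11 fell (9.83% and 12.9%). The members' median log2 fold change was -0.43 in B6 Aire-/-, -0.42 in Y86C, -0.36 in C313X and -0.50 in C442G homozygotes, beside -0.01, -0.03, -0.03 and -0.00 over all genes tested. The C313X count rested on single libraries: it was 8 without wild-type library 6, 8 without homozygous library 1 and 7 without homozygous library 10. The NOD Aire-/- count was 6 without homozygous library 405, 16 when only the compared groups were fitted and 21 against all 8 NOD wild types of the same table.

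**Figure D1:**
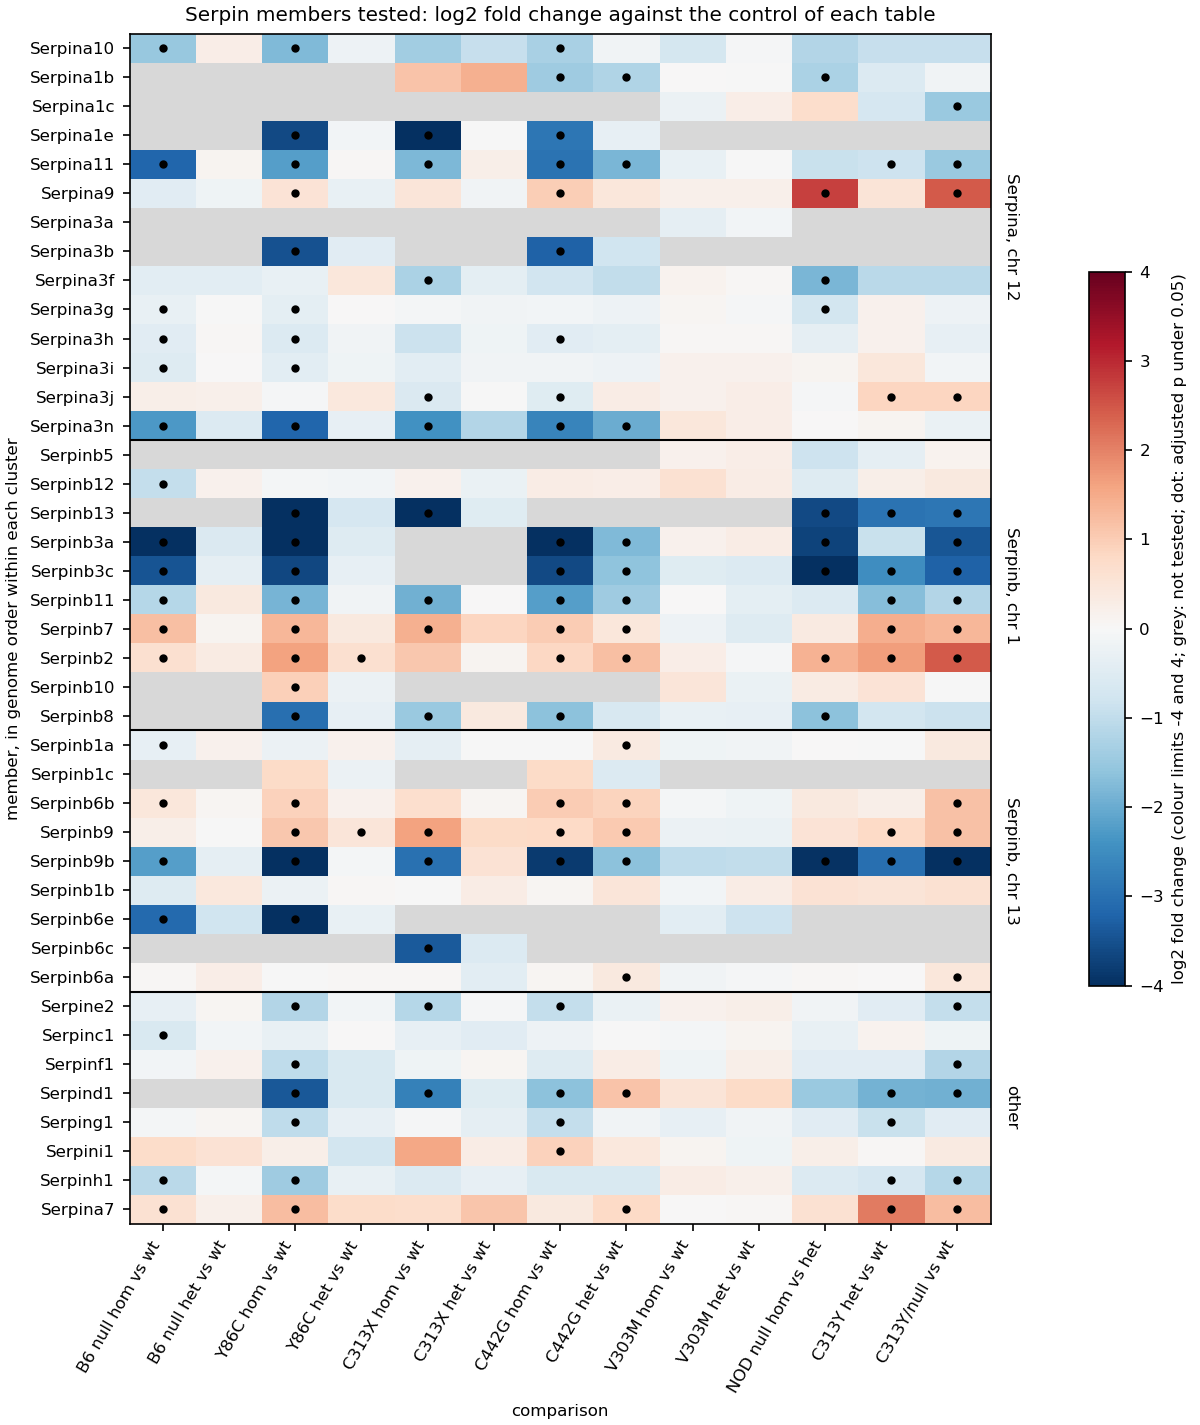
Log2 fold change of 41 of the 42 tested members (rows, in genome order within each cluster) in 13 comparisons (columns), with colour limits at -4 and 4, grey for not tested and a dot for an adjusted p under 0.05. Each cluster holds rows that are mostly red (higher) and rows that are mostly blue (lower), and the V303M columns carry no dot.

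The Serpinb cluster on chromosome 1 split by position. Serpinb7 (megsin) and its neighbour Serpinb2 (plasminogen activator inhibitor 2), which lie 58.7 kb apart, rose in most mutants, while Serpinb3a, Serpinb3c, Serpinb13 and Serpinb11 on one side and Serpinb8 on the other fell. Serpinb7 stood at 14.8, 15.7 and 16.0 CPM in B6 wild type and at 20.5, 32.9, 36.5 and 40.95 CPM in Aire-/-, without overlap, a log2 fold change of 1.19 ± 0.24 (adjusted p = 0.000226). In Y86C it went from 11.2, 16.0 and 21.5 CPM to 30.7, 35.9 and 38.4 CPM, a log2 fold change of 1.33 ± 0.19 (adjusted p = 9.4e-07). In C442G it rose from 18.8, 23.4 and 27.9 CPM to between 37.4 and 45.5 CPM in 6 homozygotes (median 41.8), a log2 fold change of 1.01 ± 0.14. The lowest homozygote of each of these lines lay above the highest wild type. In C313X, values of 2.08, 3.68 and 9.14 CPM in wild type and 10.8, 11.2 and 14.2 CPM in homozygotes gave 1.41 ± 0.46 (adjusted p = 0.0472), a call lost without wild-type library 2 or 6 or any 1 of the 3 homozygotes. In the C313Y/null mutants Serpinb7 stood at 9.59, 12.9 and 13.4 CPM against 3.85, 4.97 and 7.37 CPM (1.34 ± 0.31). In NOD Aire-/- its change was not called.

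Serpinb2 followed the same direction with a wider range of sizes. It measured 72.8, 84.6 and 88.6 CPM in B6 wild type and 105, 112, 122 and 132 CPM in Aire-/-, which is a log2 fold change of 0.63 ± 0.18 (adjusted p = 0.014) that was no longer called without wild-type library wt_432. In Y86C homozygotes it reached 331, 331 and 346 CPM against 91.5, 147 and 151 CPM, or 1.61 ± 0.15. The 6 C442G homozygotes lay between 258 and 349 CPM (median 292) against 187, 188 and 194 CPM, or 0.84 ± 0.13. No mutant library of these lines overlapped its wild types. On NOD it rose from 209, 238 and 256 CPM in Aire+/- to 518, 567 and 569 CPM in Aire-/- (1.39 ± 0.23), and from 97.7, 104 and 132 CPM to 460, 599 and 632 CPM in the C313Y/null mutants (2.46 ± 0.24, adjusted p = 5.39e-08). In C313X the homozygotes at 381, 388 and 487 CPM all lay above wild types at 104, 260 and 305 CPM, but the change was not called. Serpinb10, annotated as a polymorphic pseudogene, overlaps Serpinb2 by 6.5 kb, so their tags may not be fully separable. It rose in Y86C from 3.14, 3.20 and 4.05 CPM to 4.70, 6.09 and 6.49 CPM (0.95 ± 0.37, adjusted p = 0.0341), a call that was lost without wild-type library 2 or 3, without homozygous library 4 or 9, with plain library totals and with DESeq2.

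The members that fell most in this cluster were Serpinb3a and Serpinb3c, mouse relatives of the squamous cell carcinoma antigens, and Serpinb13 (headpin), a squamous-epithelium inhibitor of lysosomal cysteine proteases. Serpinb3a stood at 3.55, 7.73 and 10.6 CPM in B6 wild type, while 3 of the 4 Aire-/- libraries held no count and the fourth 0.802 CPM. The ratio was 42.1 (95% counting interval 11 to 357), and the fitted change was -4.88 ± 0.77 on the log2 scale. In Y86C, 15.0, 17.5 and 19.9 CPM in wild type stood against 0, 0.277 and 0.499 CPM, a ratio of 79.3 (21.5 to 662). The groups did not overlap in either line. The 6 C442G homozygotes held 0 to 1.63 CPM (median 0.133) against 7.93, 11.4 and 15.4 CPM, which gave -4.51 ± 0.58. On NOD, Aire-/- libraries had 0.395, 0.434 and 1.95 CPM against 9.48, 12.5 and 14.1 CPM (-3.69 ± 0.62), and the C313Y/null mutants 0.548, 0.560 and 0.677 CPM against 5.52, 7.93 and 8.58 CPM (-3.41 ± 0.62). Serpinb3a was not analysed here in the C313X line.

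Serpinb3c behaved alike. In B6 it fell from 6.51, 9.79 and 11.7 CPM to 0, 0.376, 1.54 and 1.60 CPM (-3.45 ± 0.57), and in Y86C from 17.4, 17.5 and 25.5 CPM to 0.830, 0.998 and 2.06 CPM (-3.64 ± 0.36). The C442G homozygotes held at most 1.12 CPM (median 0.541) against 2.86, 9.29 and 11.4 CPM in wild type, or -3.60 ± 0.57. Its NOD values were 0, 0.434 and 0.651 CPM in Aire-/- against 3.79, 9.48 and 9.69 CPM, a ratio of 25.5 (95% counting interval 6.83 to 214), and 0.338, 0.822 and 0.840 CPM in the C313Y/null mutants against 7.18, 7.37 and 7.70 CPM (-3.24 ± 0.66). No range overlapped in these 5 comparisons. Serpinb3a, b3b and b3c are near-identical copies whose tags could have been shared in counting. Their summed CPM was 16.8 ± 6.19 (SD, n = 3) in B6 wild type and 1.08 ± 1.10 (n = 4) in Aire-/-, so the sum fell as the single genes did.

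Serpinb13 had 0 counts in all Y86C and all C313X homozygotes. Its wild types held 4.93, 6.41 and 10.5 CPM in the Y86C line, which makes the fall at least 22.0-fold when the empty group is set to a floor of 3 counts in total, and 5.04, 6.43 and 12.9 CPM in the C313X line, at least 22.5-fold. In NOD Aire-/- 0, 0 and 0.434 CPM stood against 2.27, 2.35 and 3.25 CPM, a ratio of 17.0 (95% counting interval 2.79 to 697), called but lost without heterozygous library 402 or homozygous library 405 or 406. The C313Y/null mutants held 0, 0.274 and 0.677 CPM against 2.07, 2.49 and 3.97 CPM, a ratio of 8.90 (2.69 to 46.3), lost without compound library 1. In B6 Aire-/- and C442G homozygotes it was too low to be tested: the 4 Aire-/- libraries held no count and the 6 C442G homozygotes 1 count in all, a ratio of 48.4 (95% counting interval 7.58 to 2020).

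Serpinb11 fell less steeply. B6 wild types held 10.1, 13.4 and 17.5 CPM and Aire-/- libraries 4.51, 4.62, 6.08 and 8.02 CPM, or -1.15 ± 0.29 (adjusted p = 0.00259). In C442G the 6 homozygotes lay between 5.60 and 8.48 CPM (median 6.60) against 26.8, 35.0 and 48.0 CPM, or -2.19 ± 0.20 (adjusted p = 8.27e-11). Y86C homozygotes held 3.53, 3.87 and 9.98 CPM against 18.4, 21.9 and 26.4 CPM (-1.85 ± 0.29). The ranges were apart in these 3 lines. The C313Y/null mutants stood at 4.38, 4.76 and 6.09 CPM against 7.46, 14.5 and 16.4 CPM (-1.17 ± 0.31). In NOD Aire-/- its mean was 11.4 against 19.1 CPM in Aire+/-, with ranges apart but no call. In C313X, homozygotes at 2.53, 3.51 and 4.15 CPM lay below wild types at 4.60, 7.78 and 29.1 CPM (-1.91 ± 0.59, adjusted p = 0.0415). That call was lost without wild-type library 6 or any 1 homozygote.

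Serpinb8, an intracellular inhibitor of furin-like proteases at the end of the cluster, fell in Y86C from 5.38, 9.32 and 11.4 CPM to 0.588, 0.998 and 1.11 CPM (-3.01 ± 0.46). It also fell in C442G homozygotes, from 4.00, 6.26 and 7.38 CPM to 1.06 to 2.53 CPM (median 1.58; -1.64 ± 0.38). Its calls in C313X homozygotes (-1.49 ± 0.48) and NOD Aire-/- (-1.64 ± 0.48) were lost without any 1 C313X library of either group, and without NOD heterozygous library 402 or homozygous library 405 or 406. Serpinb12 had another pattern. It measured 128, 129 and 146 CPM in B6 wild type and 59.1, 59.7, 64.7 and 76.3 CPM in Aire-/- without overlap (-0.95 ± 0.12, adjusted p = 1.56e-07), and was called in no other comparison, with log2 fold changes of -0.08 ± 0.22 in Y86C, 0.17 ± 0.20 in C313X and 0.31 ± 0.17 in C442G homozygotes.

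Keratinocyte markers fell in homozygotes of the B6 lines, as did Serpinb3a, Serpinb3c and Serpinb13 where tested. In the same homozygotes Serpinb7 was called higher, and so was Serpinb2 in all but C313X. The 7 markers (Krt1, Krt10, Ivl, Lor, Krt5, Krt14 and Cdsn) summed to 1754 to 1911 CPM in wild type and 714 to 981 CPM in Aire-/-, with 5 of 7 called lower. All 7 were called lower in Y86C homozygotes (308 to 328 against 1023 to 1438 CPM) and in C442G homozygotes (399 to 576 against 856 to 1473 CPM), and 4 of 7 in C313X (651 to 883 against 1258 to 1740 CPM). On NOD none of 7 was called in edgeR in Aire-/- (2471 to 2691 against 2855 to 3508 CPM) or in the C313Y/null mutants (1947 to 3067 against 3707 to 4851 CPM), although Serpinb3a, Serpinb3c and Serpinb13 were called lower in both. No marker of the 7 was at 0 in any group. Their part in the results was not tested.

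**Figure D2:**
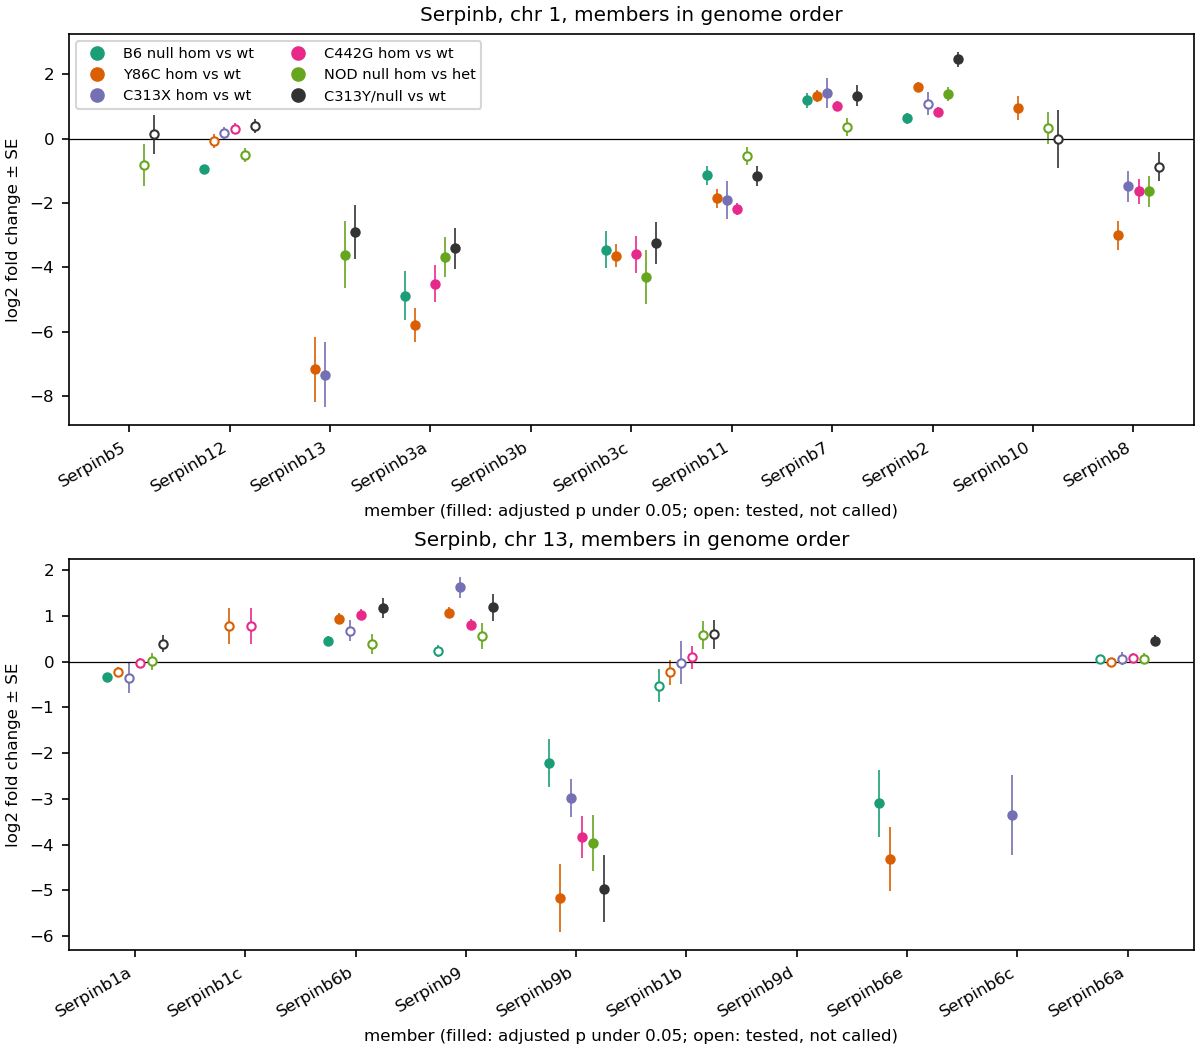
Log2 fold change ± SE (y axis) of Serpinb members in genome order on chromosome 1 (top) and chromosome 13 (bottom) in 6 comparisons of homozygous or compound mutants. On chromosome 1, Serpinb7 and Serpinb2 lie above 0 between Serpinb11 and Serpinb8, whose points lie below it, and on chromosome 13 Serpinb9b lies below 0 next to Serpinb9 above it.

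On chromosome 13 the neighbours Serpinb9 and Serpinb9b, 9.5 kb apart, moved in opposite directions where both were called. Serpinb6b, 24.2 kb before Serpinb9, was called higher with it in Y86C and C442G homozygotes and in the C313Y/null mutants. Serpinb9 is the intracellular inhibitor of granzyme B, the killing protease of cytotoxic lymphocytes. In Y86C it rose from 46.2, 60.8 and 61.2 CPM to 92.8, 101 and 105 CPM (1.07 ± 0.12, adjusted p = 4.59e-09). C313X homozygotes held 29.4, 30.3 and 41.5 CPM against 9.78, 13.9 and 14.7 CPM (1.62 ± 0.23), and the 6 C442G homozygotes 90.97 to 116 CPM (median 106) against 62.8, 71.2 and 72.2 CPM (0.81 ± 0.12). The mutants lay above the wild types in each of these lines. The C313Y/null mutants stood at 59.2, 73.1 and 97.2 CPM against 28.2, 36.7 and 47.0 CPM (1.18 ± 0.30). In B6 Aire-/- the log2 fold change was 0.23 ± 0.13 and not called, and no change was called in NOD Aire-/- (mean 88.6 against 66.9 CPM).

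Serpinb9b was called lower in each comparison of homozygous or compound mutants except V303M. The V303M homozygotes had a mean of 7.12 CPM against 14.98 CPM in wild type, with ranges apart, and the change was not called. It had 2.58, 7.10 and 7.66 CPM in B6 wild type and 0.401, 0.829, 1.50 and 2.05 CPM in Aire-/- (-2.22 ± 0.53, adjusted p = 0.00128). In Y86C 0, 0.277 and 0.998 CPM stood against 12.6, 13.5 and 21.9 CPM, a ratio of 48.1 (95% counting interval 16.1 to 236), and in C442G 0.272 to 0.886 CPM (median 0.333) against 4.00, 7.40 and 10.9 CPM (-3.84 ± 0.46). C313X homozygotes held 0.540, 0.958 and 1.27 CPM against 7.44, 8.28 and 9.78 CPM (-2.98 ± 0.42). No range overlapped. On NOD it went from 9.48, 14.4 and 18.8 CPM to 0, 0.395 and 1.74 CPM in Aire-/- (-3.96 ± 0.61), and from 3.40, 8.88 and 10.5 CPM to 0, 0.280 and 0.338 CPM in the C313Y/null mutants, a ratio of 43.0 (11.5 to 361).

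Serpinb6b rose in B6 Aire-/- from 140, 145 and 153 CPM to 170, 183, 184 and 207 CPM (0.45 ± 0.11), in Y86C from 209, 243 and 290 CPM to 370, 396 and 428.9 CPM (0.93 ± 0.12), and in C442G from 124, 142 and 148 CPM to 237 to 261 CPM (median 241; 1.02 ± 0.12, adjusted p = 1.17e-08). The C313Y/null mutants held 225, 234 and 362 CPM against 123, 130 and 143 CPM (1.18 ± 0.22). All these ranges were apart. Serpinb6b was not called in C313X homozygotes (mean 182 against 129 CPM, ranges apart) or in NOD Aire-/- (311 against 265 CPM, ranges overlapping). Its distant cluster mate Serpinb6e fell in B6 from 2.55, 5.67 and 6.51 CPM to 0, 0.401, 0.514 and 0.829 CPM (-3.10 ± 0.73) and in Y86C from 5.38, 5.67 and 7.48 CPM to 0, 0 and 0.588 CPM, a ratio of 28.2 (95% counting interval 7.40 to 240). Serpinb6c was called in C313X, with 0.270, 0.316 and 0.319 CPM against 1.69, 2.76 and 6.82 CPM, a ratio of 13.9 (4.34 to 71.2), which was lost without any 1 of the 3 homozygotes. Serpinb1a, an inhibitor of neutrophil elastase-like proteases, fell in B6 Aire-/- from 633, 653 and 668 CPM to 439.2, 486, 489 and 511 CPM (-0.34 ± 0.08). Serpinb6a rose in the C313Y/null mutants, from 167, 196 and 201 CPM to 225, 236 and 252 CPM (0.46 ± 0.12), a call lost without wild-type library 3.

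**Figure D3:**
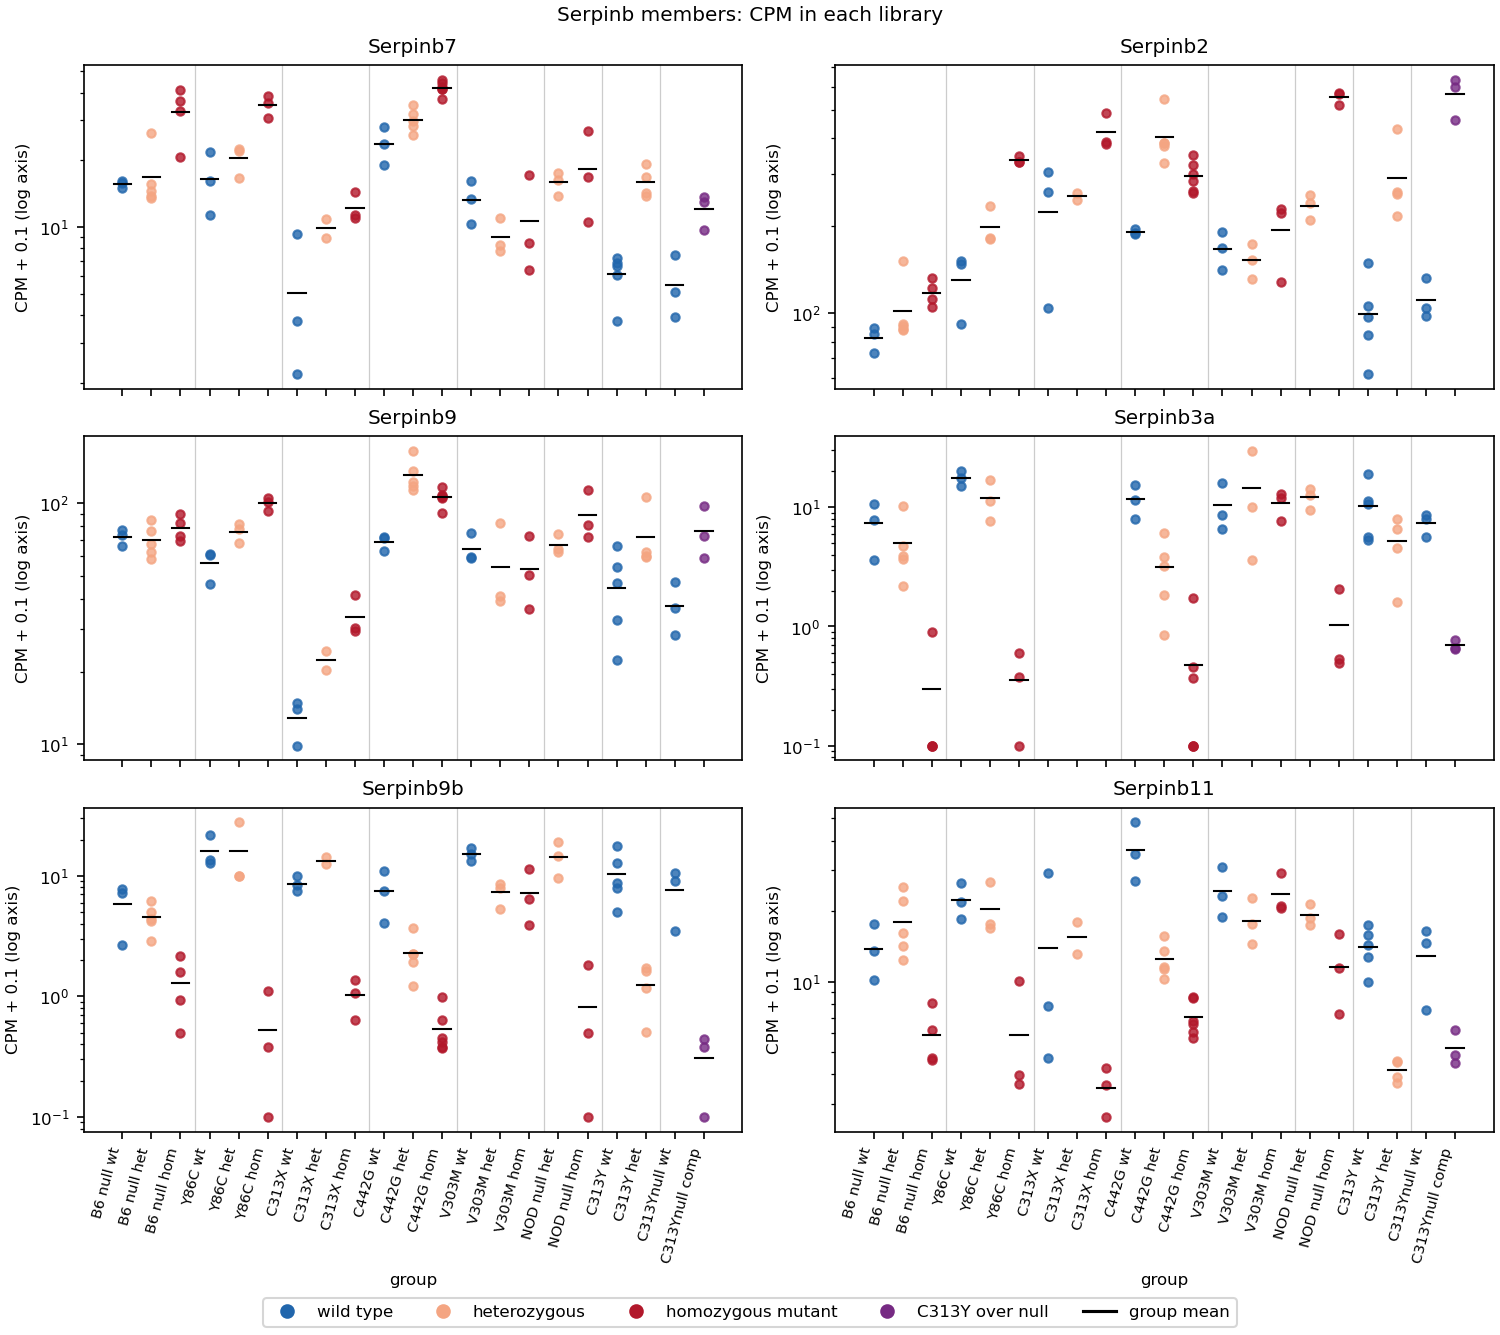
CPM + 0.1 on a log axis (y) of 6 Serpinb members in each library of 21 groups (x), with points coloured by genotype and a bar at the group mean (Serpinb3a has no values in the C313X line). Outside V303M, homozygous points of Serpinb7, Serpinb2 and Serpinb9 mostly lie above their controls, and those of Serpinb3a, Serpinb9b and Serpinb11 below. Serpinb9 overlaps its control in B6 Aire-/-, as do Serpinb7 and Serpinb9 in NOD Aire-/-. The +/C442G means of Serpinb2 (403 CPM) and Serpinb9 (130 CPM) exceed those of the C442G homozygotes (296 and 105 CPM).

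Of the Serpina cluster on chromosome 12, 0 members rose and 6 fell of 9 tested in B6 Aire-/-, 1 and 8 of 11 in Y86C, 0 and 5 of 11 in C313X and 1 and 8 of 12 in C442G homozygotes. In NOD Aire-/- 1 rose and 3 fell of 11, and in the C313Y/null mutants 2 and 2 of 11. These counts cover the members that passed the filter on low values, and the shares of all genes that fell were the 18.9%, 27.9%, 15.2%, 23.1%, 9.11% and 12.9% given above. Serpina11, a clade A member without an assigned target, stood at 14.2, 15.4 and 18.0 CPM in B6 wild type and at 0.401, 0.751, 1.66 and 4.11 CPM in Aire-/- (-3.16 ± 0.37, adjusted p = 5.53e-08). It fell from 22.8, 23.3 and 25.5 CPM to 2.99, 4.41 and 4.98 CPM in Y86C (-2.21 ± 0.24), and from 21.0, 23.1 and 30.4 CPM to 3.83, 5.67 and 8.54 CPM in C313X (-1.81 ± 0.33). The 6 C442G homozygotes held 1.41 to 5.16 CPM (median 2.30) against 11.99, 26.5 and 33.6 CPM (-2.96 ± 0.31). The groups were apart in all 4 lines. In the C313Y/null mutants it went from 16.3, 16.4 and 18.0 CPM to 4.38, 5.60 and 6.76 CPM (-1.48 ± 0.31). In NOD Aire-/- its mean was 5.76 against 11.7 CPM in Aire+/-, with ranges apart but no call. It was called lower in +/C313Y (mean 6.55 against 12.3 CPM, ranges apart), a call lost in at least 1 fit with a library left out.

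Its neighbour Serpina9, which lies 4.8 kb away and is known from germinal-centre B cells, went the other way in NOD Aire-/- and C313Y/null mutants. It stood at 6.46, 9.85 and 19.2 CPM in NOD Aire+/- and at 61.6, 76.4 and 82.01 CPM in Aire-/- (2.75 ± 0.33, adjusted p = 2.6e-06). The C313Y/null mutants held 28.1, 41.6 and 44.8 CPM against 5.33, 6.80 and 10.2 CPM (2.46 ± 0.36). In these NOD comparisons the groups were far apart. In +/C313Y (mean 12.6 against 9.58 CPM) and in V303M homozygotes (12.6 against 11.3 CPM) Serpina9 overlapped its wild types and was not called. On B6 Aire-/- libraries held a mean of 10.6 ± 3.34 CPM (SD, n = 4) against 15.7 ± 4.21 CPM (n = 3) in wild type, a log2 fold change of -0.45 ± 0.25 that was not called. The C442G homozygotes stood at 27.0 to 49.1 CPM (median 34.3) against 18.0, 18.8 and 27.3 CPM (0.98 ± 0.22), with overlap. The Y86C call (0.55 ± 0.19, adjusted p = 0.0187) came with overlapping ranges, 17.0, 31.5 and 34.0 CPM against 20.7, 22.0 and 26.4 CPM, and was lost with DESeq2, with plain library totals, without wild-type library 1 or 3 and without homozygous library 4 or 5. Compared between strains as Aire-/- over Aire+/-, the NOD effect exceeded the B6 effect by 3.03 ± 0.43 on the log2 scale for Serpina9 (adjusted p = 3.82e-05) and by 2.37 ± 0.52 for Serpina11 (adjusted p = 0.0116), 2 of 37 members tested, with none in the other direction (0.571% and 0.465% of all genes). That test was added after the values were seen, and the Serpina11 difference was lost without NOD homozygous library 404.

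Serpina3n, a secreted inhibitor of granzyme B and other serine proteases, fell in homozygotes of each B6 line. It went from 12.9, 14.8 and 22.2 CPM to 2.25, 2.405, 3.04 and 5.65 CPM in Aire-/- (-2.29 ± 0.32), and from 8.07, 9.97 and 15.4 CPM to 0.588, 1.11 and 1.50 CPM in Y86C (-3.18 ± 0.45). C313X homozygotes held 1.89, 1.92 and 5.38 CPM against 12.5, 15.6 and 27.6 CPM (-2.43 ± 0.45). The 6 C442G homozygotes had 0.353 to 1.77 CPM (median 0.742) against 3.43, 5.12 and 9.84 CPM (-2.65 ± 0.45), and none of the 4 lines overlapped. On NOD its log2 fold change was 0.01 ± 0.34 in Aire-/-, -0.26 ± 0.34 in the C313Y/null mutants and 0.46 ± 0.28 in V303M homozygotes, none of them called. The difference between the NOD and B6 null effects was 1.75 ± 0.58 (adjusted p = 0.167), so it was not shown to differ between strains.

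Levels of some members of this subfamily differed between the NOD and B6 groups, in both directions. Serpina3j was lower on NOD, with group means of 17.9 to 31.9 CPM against 51.8 to 188 CPM on B6, and Serpina3g means overlapped. Serpina3h, annotated as a pseudogene, had group means of 292 to 708 CPM in the NOD groups and 22.6 to 64.2 CPM in the B6 groups, and Serpina3n 48.8 to 79.3 CPM against 0.878 to 18.6 CPM. The Serpina3 genes are recent copies, the counts of both strains were made on the same reference build, and tables of both strains were processed apart. Their part in these levels was not tested. Within B6, Serpina3h fell by 0.45 to 0.56 on the log2 scale in Aire-/-, C442G and Y86C homozygotes, the C442G call being lost without wild-type library 86. Serpina3i fell by 0.51 in Aire-/- and by 0.42 in Y86C, the latter lost without wild-type library 2 or homozygous library 4 or 5. Serpina3g fell by 0.29 in B6 Aire-/- (lost without any 1 wild type or homozygous library KO_429), by 0.39 in Y86C and by 0.75 in NOD Aire-/-. The summed Serpina3 genes had 516 ± 13.9 CPM (SD, n = 3) in B6 wild type and 389 ± 41.1 CPM (n = 4) in Aire-/-. Serpina3j fell in C313X and C442G homozygotes (-0.57 ± 0.17 and -0.50 ± 0.15, the first lost without wild-type library 2 or 6 or homozygous library 1 or 14) and rose in the C313Y/null mutants, from 16.3, 20.4 and 21.5 CPM to 27.7, 32.8 and 35.3 CPM (0.86 ± 0.21).

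Serpina1e, one of the mouse copies of alpha-1-antitrypsin, went from 6.08, 6.28 and 8.19 CPM to 0, 0.277 and 0.882 CPM in Y86C (-3.59 ± 0.56) and from 6.22, 8.28 and 13.2 CPM to 0, 0.270 and 0.633 CPM in C313X, a ratio of 31.0 (95% counting interval 10.2 to 154). Its call in C442G (-2.89 ± 0.52) was lost without wild-type library 88 and its ranges overlapped there. Serpina3b fell in Y86C from 5.67, 6.41 and 7.18 CPM to 0.277, 0.499 and 0.588 CPM (-3.48 ± 0.57), and in C442G from 2.85, 3.43 and 4.10 CPM to 0 to 0.942 CPM (median 0.133; -3.23 ± 0.65). Serpina10, the inhibitor of factor Xa that acts with protein Z, went from 5.70, 8.91 and 10.3 CPM to 1.11, 1.996 and 2.94 CPM in Y86C (-1.77 ± 0.40) and from 6.26, 6.85 and 8.20 CPM to 1.06 to 3.93 CPM in C442G (median 2.44; -1.30 ± 0.35). Its call in B6 Aire-/- (-1.50 ± 0.55, adjusted p = 0.0321) was lost without wild-type library wt_432 or wt_434 or homozygous library KO_428 or KO_429. On NOD, Serpina1b fell in Aire-/- from 9.48, 13.6 and 13.8 CPM to 4.34, 4.56 and 4.74 CPM (-1.27 ± 0.36, lost without heterozygous library 392 or 395 or any 1 homozygote), Serpina3f from 3.41, 4.70 and 5.14 CPM to 0.395, 1.30 and 1.95 CPM (-1.82 ± 0.58, lost without heterozygous library 392 or 402 or homozygous library 404 or 405), and Serpina1c in the C313Y/null mutants from 4.53, 5.92 and 8.84 CPM to 0.677, 2.52 and 3.01 CPM (-1.49 ± 0.46, lost without wild-type or compound library 3). The Serpina1 genes are near-identical copies, so values of single copies are uncertain.

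Hepatocyte markers (Alb, Ttr, Apoa1, Apoa2, Fgb and Tat) fell in the same groups. Their sum was 297 to 411 CPM in B6 wild type and 87.6 to 104 CPM in Aire-/- (4 of 5 tested called lower), 376 to 414 against 36.4 to 52.6 CPM in Y86C homozygotes (6 of 6), 285 to 327 against 63.29 to 83.99 CPM in C313X (5 of 6) and 445 to 617 against 97.7 to 207 CPM in C442G (4 of 5). In NOD Aire-/- it was 15.8 to 32.5 against 137 to 172 CPM (5 of 5) and in the C313Y/null mutants 22.7 to 83.2 against 167 to 187 CPM (4 of 5). Fgb and Tat were at 0 in the C313X homozygotes. Their part in the Serpina results was not tested.

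**Figure D4:**
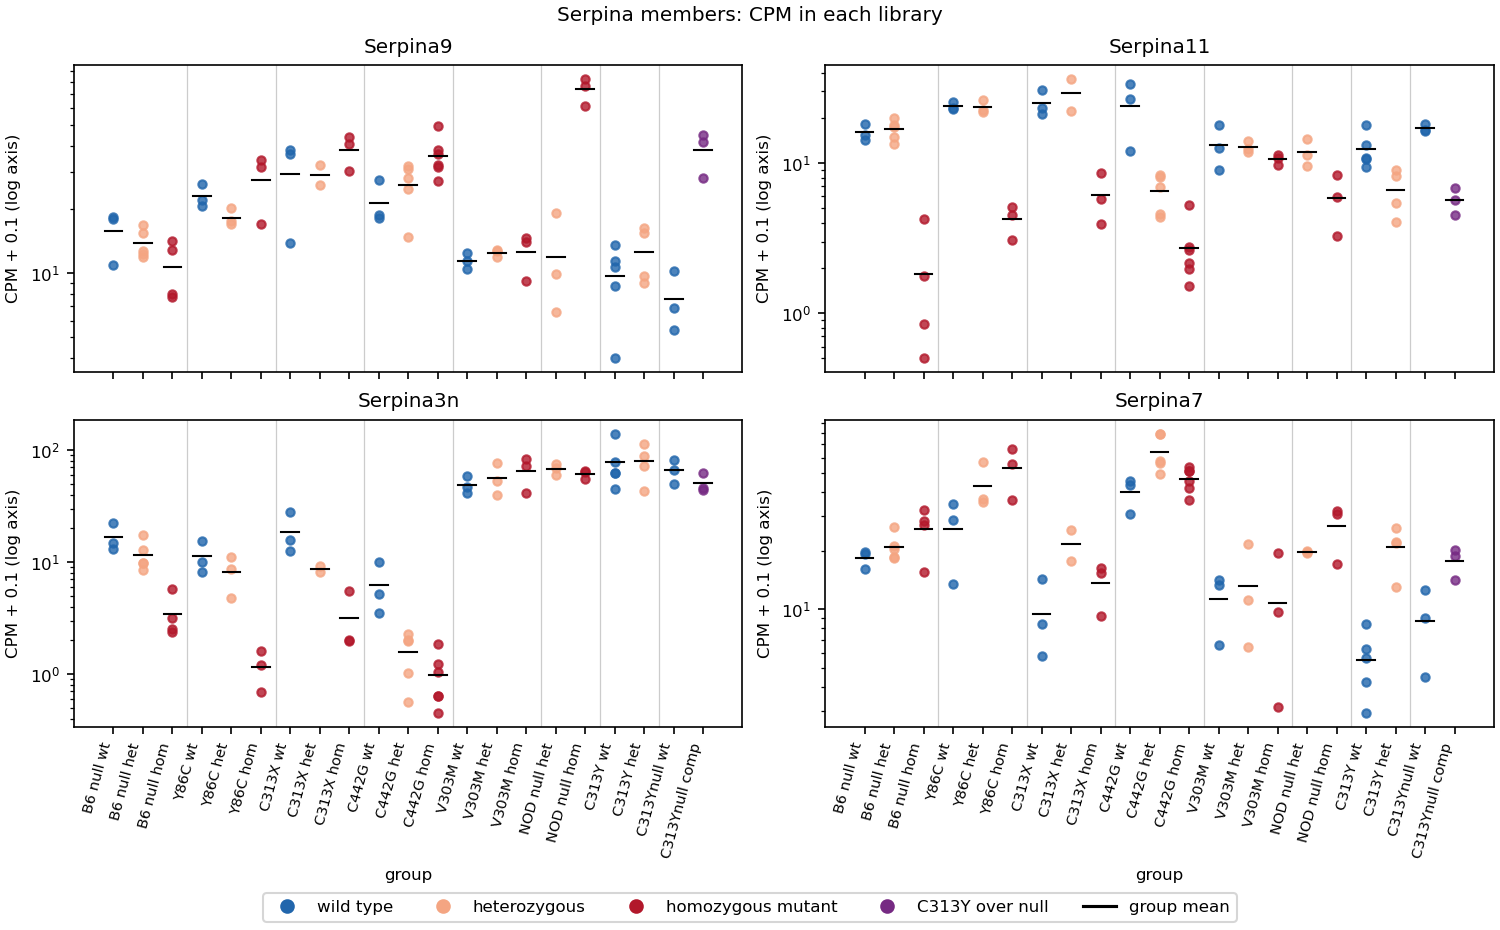
CPM + 0.1 on a log axis (y) of Serpina9, Serpina11, Serpina3n and Serpina7 in each library of 21 groups (x), with a bar at the group mean. Serpina9 is highest in NOD Aire-/- at 61.6 to 82.01 CPM, and Serpina3n falls in B6 homozygotes while the NOD groups stay at means of 48.8 to 79.3 CPM.

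Members outside the clusters are described by role, and the roles were not compared in a test. Among the chaperone and non-inhibitory members, Serpinh1 (HSP47), the collagen chaperone of the endoplasmic reticulum, fell in B6 Aire-/- from 41.9, 46.4 and 49.1 CPM to 12.4, 14.7, 21.6 and 29.6 CPM (-1.08 ± 0.26) and in Y86C from 36.5, 36.7 and 37.7 CPM to 4.99, 13.3 and 14.4 CPM (-1.41 ± 0.23). It also fell in the C313Y/null mutants, from 77.6, 84.1 and 92.2 CPM to 25.8, 32.8 and 48.2 CPM (-1.13 ± 0.27). The groups did not overlap in these 3 comparisons. Serpina7 (thyroxine-binding globulin), a hormone carrier encoded on the X chromosome, rose in the C313Y/null mutants from 4.42, 8.88 and 12.5 CPM to 14, 18.6 and 19.96 CPM (1.23 ± 0.32, lost without wild-type library 3). In Y86C its 36.2, 55.3 and 66.3 CPM stood above 13.5, 28.8 and 34.5 CPM (1.22 ± 0.36), a call lost without wild-type library 1 or homozygous library 5. Its call in B6 Aire-/- (0.61 ± 0.21, adjusted p = 0.0218) had overlapping ranges, 15.4, 27.1, 28.2 and 32.1 CPM against 16.0, 19.1 and 19.7 CPM, and was lost with DESeq2, with plain library totals, without wild-type library wt_432 and without homozygous library KO_429 or KO_436. Serpinf1 (PEDF), which is anti-angiogenic, fell in Y86C (-1.01 ± 0.32, lost without homozygous library 5) and in the C313Y/null mutants (-1.17 ± 0.34, lost without wild-type library 2 or compound library 3).

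Of the inhibitors of plasma cascades, Serpind1 (heparin cofactor II, an inhibitor of thrombin) fell in Y86C from 4.86, 8.54 and 13.01 CPM to 0, 0.277 and 1.47 CPM (-3.39 ± 0.63). In C442G homozygotes it had 0.543 to 1.68 CPM (median 0.914) against 2.28, 2.85 and 4.92 CPM (-1.65 ± 0.43, lost without wild-type library 88). Its falls in C313X homozygotes (-2.69 ± 0.82) and C313Y/null mutants (-1.91 ± 0.68) were lost without any 1 homozygous or compound library and without wild-type library 2 or 6 and wild-type library 1 or 2, respectively. Serping1, the C1 inhibitor of complement, fell in Y86C from 43.5, 45.6 and 51.1 CPM to 12.7, 23.0 and 23.8 CPM (-1.02 ± 0.18) and in C442G from 52.4, 57.1 and 62.8 CPM to 15.7 to 34.8 CPM (median 26.7; -0.95 ± 0.17), with no overlap. Serpinc1 (antithrombin) was called in B6 Aire-/- alone, at 19.2, 20.04, 20.5 and 27.4 CPM against 28.4, 38.6 and 40.5 CPM (-0.61 ± 0.19, lost without wild-type library wt_430).

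Among inhibitors that act in tissue, Serpine2 (protease nexin-1) fell in Y86C from 24.7, 28.5 and 36.5 CPM to 5.49, 12.1 and 13.8 CPM (-1.18 ± 0.22), in C442G from 16.0, 23.2 and 28.5 CPM to 7.76 to 13.2 CPM (median 9.72; -0.96 ± 0.21), and in the C313Y/null mutants from 46.5, 58.3 and 60.1 CPM to 17.9, 27.4 and 33.1 CPM (-0.94 ± 0.21). The groups did not overlap in these comparisons. In C313X Serpine2 fell by 1.14 on the log2 scale, a call lost without wild-type library 6 or 7 or homozygous library 10 or 14. Serpini1 (neuroserpin) was called in C442G homozygotes alone (0.92 ± 0.27), with overlapping ranges.

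The number of members called in heterozygotes varied by allele, and so did the number of libraries. It was 2 for +/C313X, 3 for +/Y86C and +/V303M, 4 for +/C313Y and 5 for Aire+/- and +/C442G on B6. The counts of calls were not tested against each other. Effects on single members were compared directly between heterozygotes for C442G against the null alone. In B6 Aire+/- edgeR called 0 of 30 members (0.48% of all genes), with 3 at an unadjusted p under 0.05 and 0 in DESeq2, and 1 was called without heterozygous library het_433. In +/C313X it called 0 of 33 (0% of all genes), with 4 at an unadjusted p under 0.05 and 0 in DESeq2. In +/Y86C it called Serpinb2 and Serpinb9 higher and no member lower (2.32% and 1.04% of all genes). Serpinb2 stood at 180, 181 and 234 CPM against 91.5, 147 and 151 CPM (0.65 ± 0.16) and Serpinb9 at 68.1, 77.6 and 81.8 CPM against 46.2, 60.8 and 61.2 CPM (0.47 ± 0.12). Either call was lost without heterozygous library 10 or 14 and with plain library totals, Serpinb2 also without heterozygous library 3 and Serpinb9 without wild-type library 3 and with DESeq2.

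The +/C442G libraries had 9 of 35 members higher and 7 lower (13.1% and 13.4% of all genes), or 6 and 10 with plain library totals. They share their wild types with the C442G homozygotes, so the comparisons are given side by side. Serpinb2 stood at 329, 374, 383, 383 and 545 CPM (1.21 ± 0.14) and Serpinb9 at 113, 118, 122, 136 and 164 CPM (1.04 ± 0.12), beside 0.84 and 0.81 on the log2 scale in the homozygotes. Serpinb6b rose by 0.90 ± 0.12. Among the fallers, Serpina11 had 4.30, 4.46, 6.87, 8.01 and 8.21 CPM (-1.82 ± 0.29) and Serpinb11 10.2, 11.2, 11.5, 13.4 and 15.6 CPM (-1.42 ± 0.20), neither overlapping the wild types. Serpinb3a had 0.744, 1.73, 3.10, 3.70 and 5.96 CPM (-1.76 ± 0.46). Serpind1 had opposite signs, with 5.21, 6.48, 7.16, 7.70 and 10.5 CPM in +/C442G (1.14 ± 0.35, lost without wild-type library 86 or 89) and a fall in homozygotes as given above. Serpinb1a was also higher (0.35 ± 0.11, lost without wild-type library 88 or 89 and with plain library totals), with overlapping ranges.

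The +/C313Y libraries on NOD had 5 of 36 members higher and 8 lower (6.36% and 11% of all genes), and 4 and 4 when only the compared groups were fitted. Serpina7 rose from 2.86, 4.15, 5.54, 6.15 and 8.29 CPM to 12.9, 21.8, 22.1 and 25.9 CPM (2.07 ± 0.28, adjusted p = 3.72e-06). Serpinb2 went from 61.6, 84.2, 97.3, 106 and 149 CPM to 216, 256, 262 and 429.5 CPM (1.66 ± 0.19) and Serpinb7 from 3.70, 6.00, 6.55, 6.80 and 7.16 CPM to 13.7, 14.04, 16.6 and 19.0 CPM (1.46 ± 0.25). All 3 were apart from the wild types. Serpinb9b fell to 0.405, 1.07, 1.52 and 1.60 CPM from 4.93, 7.77, 8.67, 12.6 and 17.5 CPM (-3.01 ± 0.47), and Serpinb13 to 0, 0, 0.715 and 1.22 CPM from 2.46, 2.64, 2.91, 6.57 and 6.98 CPM (-2.97 ± 0.64). Serpinb11, Serpinb3c, Serping1 and Serpind1 fell too, with log2 fold changes of -1.70, -2.47, -0.88 and -1.90.

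No member was called in the V303M line. In V303M homozygotes edgeR called 0 of 37 members (0.0657% of all genes), with 3 at an unadjusted p under 0.05 and 0 in DESeq2, and in +/V303M 0 of 37 (0% of all genes), with 1 and 0. Serpinb7 had 10.2, 13.2 and 16.0 CPM in wild type and 6.29, 8.36 and 16.9 CPM in homozygotes. Serpinb3a had 6.50, 8.56 and 16.0 CPM against 7.60, 11.9 and 12.9 CPM. The ranges of both genes overlapped. The 3 members at an unadjusted p under 0.05 in homozygotes had ranges apart. Their means against wild type were 7.12 and 14.98 CPM for Serpinb9b, 7.32 and 12.37 CPM for Serpina10, and 137.4 and 92.98 CPM for Serpinb12. In +/V303M that member was Serpinb9b, with a mean of 7.17 CPM and ranges apart. Hepatocyte markers summed to 111.6 to 136.8 CPM in homozygotes against 163.8 to 261.6 CPM in wild type, with 1 of 6 called lower. No test compared V303M with another allele.

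Effects of the alleles on B6 were compared with the null line's effect in a joint fit of 39 members, where every difference uses the libraries of the null line. Serpinb9 rose more than in the null line in Y86C homozygotes (0.95 ± 0.20, adjusted p = 0.00511), in C313X homozygotes (1.50 ± 0.23, adjusted p = 0.000146) and in C442G homozygotes (0.63 ± 0.18, adjusted p = 0.0468). The last call was lost with DESeq2, with RLE factors and without any 1 of 14 of the 16 libraries of both lines. Serpinb12 differed in C313X (1.20 ± 0.29, lost without null-line wild type wt_434) and in C442G (1.30 ± 0.27, adjusted p = 0.00498). C442G also differed for Serpina9 (1.47 ± 0.40, lost without null-line wild type wt_430 or wt_432, homozygote KO_428 or KO_429, or C442G wild type 86 or 88). The C442G count fell to between 1 and 2 without any 1 of 10 libraries, and the Y86C count was 2 without homozygous library 9. No member differed in the lower direction in these 3 tests, with 7, 7 and 8 members at an unadjusted p under 0.05 in either direction and 0 lower in DESeq2. The background was 1.11% higher and 0.887% lower for Y86C, 1.91% and 0.784% for C313X, and 1.55% and 1.35% for C442G. Between heterozygotes, +/C442G exceeded Aire+/- in its effect for Serpinb6b (0.84 ± 0.21) and Serpinb9 (1.07 ± 0.18) and lay below it for Serpina11 (-1.92 ± 0.40), Serpinb11 (-1.81 ± 0.43) and Serpinb13 (-2.82 ± 0.85), beside 2.24% and 3.51% of all genes. The Serpinb13 difference was lost without any 1 of 8 of the 16 libraries.

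The 4 members that rose in B6 Aire-/- (Serpina7, Serpinb2, Serpinb6b and Serpinb7) and the 15 that fell were followed in the other tables. Of the 4, 4 were called higher in Y86C, 3 in C442G and 1 in C313X homozygotes, beside 76.6%, 68.8% and 37.8% of all genes chosen by the same rule. In NOD Aire-/- it was 1 of 4 (21.2% of all genes so chosen), in the C313Y/null mutants 4 of 4 (42.4%). Of the fallers, 12 of 15 were called lower in Y86C (79.7%), 8 of 14 tested in C442G (69.6%), 4 of 12 in C313X (51.2%), 4 of 14 in NOD Aire-/- (35.4%) and 6 of 14 in the C313Y/null mutants (45.7%). None was called in the opposite direction in these 5 comparisons. The fallers' shares were thus near or below those of all genes chosen alike.

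Genes that act with serpins were described from lists of proteases, receptors and other inhibitors. Their counts stand beside the shares of all genes that rose and fell, which were 17.7% and 18.9% in B6 Aire-/-, 21.7% and 27.9% in Y86C, 7.85% and 15.2% in C313X, 19.5% and 23.1% in C442G, 4.21% and 9.11% in NOD Aire-/-, and 9.83% and 12.9% in the C313Y/null mutants. Nothing particular to the lists is read from them. Of the proteases that serpins inhibit, 24 were tested in B6 Aire-/-, and 6 rose and 8 fell. In Y86C 5 rose and 14 fell of 22, in C313X 3 and 9 of 22, and in C442G 5 and 12 of 23. NOD Aire-/- had 2 rising and 7 falling of 23, and the C313Y/null mutants 5 and 8 of 23. The mast cell proteases Cma1 and Mcpt4 and the lymphocyte protease Gzmb fell in each of these 6 comparisons, while the lysosomal Ctsh rose in each. Gzmb had a mean of 11.3 CPM in B6 wild type and 0.426 CPM in Aire-/- (-4.34 on the log2 scale), where its inhibitor Serpinb9 was not called, and 10.6 CPM against 0 in Y86C, where Serpinb9 rose.

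Of the receptors and cofactors of serpins, 2 of 9 rose and 2 fell in B6 Aire-/-, 3 and 3 of 9 in Y86C, 2 and 3 of 12 in C313X and 3 and 3 of 9 in C442G. Of 10 in NOD Aire-/-, 0 rose and 1 fell, and in the C313Y/null mutants 2 and 1 of 10. Plaur, the urokinase receptor, had log2 fold changes of -1.93, -2.85 and -2.47 in the B6 null, Y86C and C442G homozygotes, and Lrp1, which clears serpin-protease complexes, of -1.37, -2.50 and -2.12. Hsp90b1 and the integrin Itgb3 rose in the same 3 lines. Among inhibitors that are not serpins, 3 of 17 rose and 9 fell in B6 Aire-/-, 4 and 14 of 18 in Y86C, 1 and 5 of 17 in C313X and 3 and 11 of 18 in C442G. NOD Aire-/- had 1 rising and 4 falling of 17, and the C313Y/null mutants 2 and 6 of 17. Slpi, the secretory leukocyte protease inhibitor, fell from a mean of 76.0 to 6.06 CPM in B6 Aire-/- (-3.53), with -5.19 in Y86C and -4.54 in C442G. Ambp (bikunin) fell in all 6 comparisons, and Tfpi, the tissue factor pathway inhibitor, rose by 1.50, 1.41, 1.70 and 1.46 in the B6 null, Y86C, C313X and C442G homozygotes.

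The promoters of members called in B6 Aire-/- were searched as those printed above, over 44 of 54 members with a RefSeq entry (51 promoters, some of them overlapping starts of 1 gene). Serpinb13, Serpina9, Serpina10, Serpina3h, Serpina3k, Serpina3m, Serpina6, Serpinb1a and Serping1 were among those without an entry. By gene, TATAAA was in 3 of the 4 members that rose (Serpinb2, Serpinb7 and Serpina7, not Serpinb6b), in 3 of 12 that fell and in 13 of all 44, beside 15.7% of 27025 genes. TGANTCA was in 2 of 4, 2 of 12 and 11 of 44, beside 8.97%, and GGGCGG in 1 of 4, 1 of 12 and 8 of 44, beside 38.2%. The fallers with TATAAA were Serpinb3a, Serpinb3c and Serpinb12, and those with TGANTCA were Serpinb11 and Serpinb12. All of these lie in the Serpinb cluster on chromosome 1, as do Serpinb2 and Serpinb7. With 4 genes in the rising set these counts are descriptions only.

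Across the 73 assigned libraries, the genes whose log2(CPM + 1), less the mean of the control group of the same line, ranked most like Serpinb7, the member with the largest called rise in B6 Aire-/-, were Smpdl3a, Tmie and Mpi (Spearman's rho 0.822, 0.789 and 0.788). Its closest members were Serpinb2 (0.718) and Serpinb9 (0.714). For Serpinb3a, the member with the largest called fall, they were Plvap, Aqp1 and Cst8 over the 65 libraries outside the C313X line (0.901, 0.889 and 0.887), and among members Serpinb3c (0.795) and Serpine2 (0.747). The libraries share genotypes and strains, so these values only describe the data.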

How the data were processed

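Per the labels' protocols, RNA of sorted mTEChi was made into bulk MARS-seq libraries. The tools named in the submitters' processing notes are STAR 2.4.2a for build mm10, cutadapt, bcl2fastq, DESeq2 and HTSeq. How strand and molecular identifiers were handled is not given in the sources used here. The authors deposited raw counts per gene and library in 6 tables, in which each listed gene reached 6 counts or more in some library, and only these counts were used. Their normalized columns (148) were not used. Groups came from titles and genotype labels, and 1 library with conflicting labels entered no group. Values of 1 member are not reported here, though counts of members include it.

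The quasi-likelihood F test of edgeR 4.0.16 (R 4.3.3) was run on the counts after filterByExpr and TMM scaling, with robust dispersions. Each table had a single fit over its groups, and differences between alleles or strains in joint fits. The adjusted p is Benjamini-Hochberg over all genes tested. On simulated data with 200 changed genes the script was checked. Intervals (95%) and floors (3 counts) cover counting error only.

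The members and lists were chosen with earlier results of these data known. Per-library values were given for members called in homozygous or compound mutants, up to 6 each way by absolute fold change with a mean of at least 1 CPM, and further called members were named after their values were seen. The same rule fixed the most-alike genes and the motifs. Of the lists, Masp1, Gzmk, Cst6, Csta1 and Spink3 were in no table. The alternatives tried were RLE factors, DESeq2 1.42.0, no filter, only the compared groups, each library left out, other NOD wild types and a replicate block. Plain library totals and the strain test were added after seeing the data.

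The numbers shared by C313Y/null mutants and their wild types do not pair them by label, and the correlations of their deviations were 0.064, -0.038 and 0.158.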

Additional observations from a re-analysis of the deposited data

Results flagged for a closer look

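Single libraries stood apart from the others of their group for 9 of 84 sets of values that were checked (chance flags about 1 in 20 groups). In B6 Aire-/-, library KO_429 held 143.5 CPM of Serpina3g and 0.802 CPM of Serpinb3a, and library KO_436 held 27.4 CPM of Serpinc1. The Serpinb3a flag rests on 2 counts in a group whose other libraries held none. Any count there would have been flagged, so the chance rate does not apply to it. In +/C313Y, library 50 held 105.5 CPM of Serpinb9. In +/C442G, library 85 held 758.5 CPM of Serpinb1a and library 81 held 545.2 CPM of Serpinb2. The C442G homozygous library 93 was the highest of its group for Serpina11 (5.16 CPM), Serpina1e (1.36 CPM) and Serpinb3a (1.63 CPM).

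Effects differed between lines by a test of the difference itself, on the log2 scale with adjusted p from edgeR under 0.05. Against the null line, Serpinb9 differed by 0.95 in Y86C, 1.50 in C313X and 0.63 in C442G homozygotes, and Serpinb12 by 1.20 in C313X and 1.30 in C442G homozygotes. C442G homozygotes also differed by 1.47 for Serpina9. Between heterozygotes of C442G and of the null line the difference was -1.92 for Serpina11, -1.81 for Serpinb11, -2.82 for Serpinb13, 0.84 for Serpinb6b and 1.07 for Serpinb9. Between the strains, in the test added after the values were seen, it was 3.03 for Serpina9 and 2.37 for Serpina11.

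The library whose title and genotype label conflict entered no comparison. Its level lay above every B6 wild type of its table, with the lower 95% counting bound included, for Serpina12 (5.46 CPM), Serpina1e (5.46 CPM), Serpina3a (6.96 CPM), Serpina3k (6.96 CPM), Serpinb11 (24.4 CPM) and Serpinb3b (2.98 CPM). All 49 members listed there were screened, and the number expected by chance was not worked out. The bound covers the counting error of this library alone, while the wild types held 1 count of Serpinb3b and 7 of Serpina3k in total.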

How the results depend on the processing

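No called change of a single member changed sign under the alternatives run. The balance in +/C442G turned from 9 higher and 7 lower to 6 and 10 with plain library totals. The +/Y86C count of 2 members became 1 with DESeq2, 0 with plain library totals and 1 with only the compared groups, and 0 to 3 with 1 library left out. The NOD Aire-/- count of 10 became 16 with only the compared groups, 21 with all 8 NOD wild types as the control and 6 to 9 with 1 library left out. The +/C313Y count of 13 became 8 with only the compared groups. With 1 library left out, the B6 Aire+/- count of 0 was 0 to 1 and the C313X homozygous count of 14 was 7 to 14. The number of members that differed from the null line was 2 with DESeq2 and 1 to 2 with 1 library left out for Y86C (1 in the main analysis), 1 to 3 for C313X and 1 to 4 for C442G homozygotes. The strain test gave 4 members with DESeq2 in place of 2. The cause of these shifts was not tested.

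Over the single members' calls, 146 held and 13 were lost with DESeq2, 158 and 1 with RLE factors, and 134 and 11 with plain library totals. Plain totals put the median log2 fold change of all genes at -0.28 in Y86C, -0.23 in C313X, -0.21 in C442G homozygotes, -0.17 in NOD Aire-/-, -0.16 in C313Y/null, -0.12 in +/C442G, -0.11 in B6 Aire-/- and -0.10 in +/C313Y. The replicate block for C313Y/null called 22 members against 20, on numbers that share only a name. Members at a few counts per library are limited by depth.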

Other observations

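The library with conflicting labels held 19.4 CPM of Serpina11, 6.96 CPM of Serpinb3a and 6.46 CPM of Serpinb9b. The B6 wild types of its table held 14.2 to 18.0, 3.55 to 10.6 and 2.58 to 7.66 CPM of these genes, and the Aire-/- libraries 0.401 to 4.11, 0 to 0.802 and 0.401 to 2.05 CPM. It held 17.9 CPM of Serpinb7, 100.9 CPM of Serpinb2 and 117.8 CPM of Serpinb12.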
